A study of Mus musculus with 12 samples.

Results

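Tubulin genes were followed by name in the liver: the α-tubulin genes Tuba1a, Tuba1b, Tuba1c, Tuba4a and Tuba8, and the β-tubulin genes Tubb2a, Tubb2b, Tubb4b, Tubb5 and Tubb6. These are 10 of the 55401 genes in the table, and 9 of them were among the 13205 genes with enough counts to be tested. Tubb2b was not tested. The libraries came from 6 female mice carrying the inducible Mir483 transgene (iTgMir483) and 6 female littermates (Control), all aged 15 weeks and on a C57BL/6J background. The transgene sits at the Rosa26 locus under Tet-off control. Its selection cassette was removed by a cross to CMV-Cre mice, whose Cre acts in all tissues, and nothing in the design confines it to liver. Doxycycline, which silences it, was given to the dams through pregnancy and then withdrawn, and Mir483 was therefore on from birth. The label for Control says littermate and gives no alleles. To remove the cassette, heterozygous transgenic males were mated to females homozygous for CMV-Cre. Which of the Tet-off or Cre alleles the Control mice carried is not stated outright in the sources used here.

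α-Tubulin and β-tubulin proteins pair into the dimers from which microtubules are built. In hepatocytes these tracks carry secretory vesicles and bile canalicular proteins, and in dividing cells they form the spindle. Each gene encodes an isotype, and many isotypes differ most in the acidic C-terminal tail. That tail is the part that many motors and tail-modifying enzymes read. Cells also hold tubulin in check at the mRNA level: when free dimers are in excess, TTC5 recognises the first residues of a newly made tubulin chain, and SCAPER and the CNOT11 subunit of the deadenylase act with it to degrade the mRNA.

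The nucleotides that encode those tails show how the genes differ, and how alike some of them are. Below are the last 30 coding bases before the stop codon for 7 of the genes, each lying in a single exon, from the GENCODE M21 annotation on GRCm38. Among α genes, capitals mark bases unlike Tuba1c, and among β genes, capitals mark bases unlike Tubb5. Bases were compared by position counted back from the stop codon, without gaps. Where coding lengths differ, capitals can therefore also mark bases that are out of register.
Tuba1c (chr15:99037977-99038006, plus strand): gctgaaggagacgatgagggtgaggaatat
Tuba4a (chr1:75215625-75215654, minus strand): TcCTaTgAGgacgaGgaTgAGgGAgaaGaG
Tuba8 (chr6:121226047-121226076, plus strand): TTtgaagAagaGAatgagggGgaggaatTt
Tubb5 (chr17:35834985-35835014, minus strand): gatttcggagaggaggcagaagaggaggcc
Tubb2a (chr13:34074471-34074500, minus strand): TTCGAGgAGgaggaggGTgaagaTgaggcT
Tubb2b (chr13:34127474-34127503, minus strand): TTCGAGgAGgaAgaggGCgaGgaTgaggcT
Tubb4b (chr2:25222311-25222340, minus strand): TTtGAGgAGgaggCTgAGgaGgaggTggcT

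Among the α genes shown, Tuba8 differed from Tuba1c at 7 of these 30 bases and Tuba4a at 14, by position and without gaps. The coding sequence of Tuba4a has 1344 bases against 1347 in Tuba1c and Tuba8. Its count of 14 can therefore include bases that are out of register. The last codon was a tyrosine codon (tat) in Tuba1c, a phenylalanine codon (ttt) in Tuba8 and a glutamate codon (gag) in Tuba4a. Tuba4a is thus the gene of these whose product lacks a terminal aromatic residue. Over the whole coding sequence, Tuba1a was 98.3% identical to Tuba1b and 97.1% to Tuba1c, while Tuba4a was 84.8% identical to Tuba1a. Tubb2a and Tubb2b were 96.5% identical. The bases at which these 2 genes differ among the last 30 leave the encoded residues the same.

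The first 12 coding bases, which encode the stretch read by TTC5, were the same in the 3 Tuba1 genes and differed at some bases in the other genes shown. Within the α genes shown, and within the β genes shown, these base differences leave the encoded residues the same. They are shown because the last codon separates the α genes (tgc, cysteine) from the β genes (atc, isoleucine).
Tuba1a, Tuba1b and Tuba1c: atgcgtgagtgc
Tuba4a: atgcgcgagtgc
Tuba8: atgagggaatgc
Tubb2a: atgcgcgagatc
Tubb2b: atgcgagagatc
Tubb4b: atgagggagatc
Tubb5: atgagggaaatc

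The likeness between genes limits what a read of 50 bases can assign. Of the 50-base windows in the annotated transcripts of Tuba1a, 75.5% also occurred in another gene, and the share was 75.1% for Tuba1b and 52.7% for Tuba1c. It was 49.6% for Tubb2a, 36.9% for Tubb2b, 41.3% for Tubb4b, 14.7% for Tuba8, 0.0892% for Tubb5 and 0 for Tubb6. Tuba1a shared 46.9% of its windows with Tuba1c and 43.4% with Tuba1b, and Tubb2b shared 31.3% of its windows with Tubb2a. For Tubb4b the sharing was mainly with the pseudogenes Tubb4b-ps1 (32.4%) and Tubb4b-ps2 (13.5%), which had at most 2 and 0 counts in any library. Tuba1a, Tuba1b and Tubb2b share windows with genes of much higher counts, so their levels are uncertain, while Tubb5 and Tubb6 shared almost no windows.

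**Figure D1:**
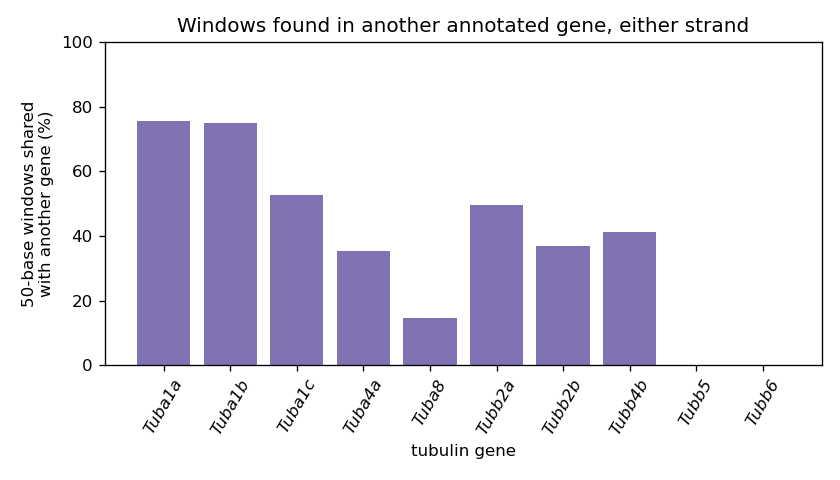
Share of each gene's 50-base transcript windows (y axis, percent) that also occur in another annotated gene on either strand, by tubulin gene (x axis). The bars run from 0 for Tubb6 and 0.0892% for Tubb5 to 75.1% for Tuba1b and 75.5% for Tuba1a.

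Overlapping genes add to this. Stk16, a kinase gene on the opposite strand (chr1:75210838-75215606), covers 37.3% of the exon bases of Tuba4a and accounts for nearly all of the 35.4% of Tuba4a windows that were shared. Gm49450, on the same strand, covers 26.2% of the exon bases of Tuba1a and 22.7% of those of Tuba1b, and it had 0 counts in all 12 libraries. Gm15856, antisense to Tuba8, covers 16.3% of its exon bases and had at most 1 count. The library kit marked strand, but which strand column of the aligner the authors kept is not given in the sources used here.

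Of the whole series, totals ranged from 12244123 to 30431286 counts in Control and from 12415140 to 15846175 in iTgMir483. Mir483 had 0 counts in the 6 Control libraries and from 318 to 761 in the iTgMir483 libraries. Some libraries stood apart from their group. By chi-square per gene, pairs with Control replicate 1 gave 83.6 to 100.3 against 22.2 to 37.8 for the other Control pairs. Pairs with iTgMir483 replicate 1 or replicate 4 gave 78.2 to 153.1 against 15.7 to 45.9 for the other iTgMir483 pairs. Hepatocyte markers summed to between 132615 and 180019 CPM (counts scaled to a common library total) in Control and between 76153 and 143940 in iTgMir483. These ranges overlapped. Most of this sum was Alb, with means of 111914 CPM in Control and 76071 in iTgMir483 and an edgeR adjusted p of 0.160. Bile duct markers summed to 21.1 to 46.5 CPM in Control and 61.3 to 90.9 in iTgMir483, without overlap. Of the 8, 5 were tested and 3 called higher by the rule given below, against 8.41% of all genes tested. Most of this sum was Spp1, with means of 25.6 CPM in Control and 63.6 in iTgMir483. Krt19 and Sox9 had log2 fold changes of 0.10 and 0.26 and were not called. Macrophage markers summed to 323.6 to 476.9 and 498.4 to 1472 CPM, without overlap, and 8 of the 11, all tested, were called higher, against the same 8.41%. Neutrophil markers gave 0.615 to 2.23 and 2.10 to 16.7 CPM, with overlap. Only 2 of these 5 were tested, and both were called higher, while Ly6g had at most 3 counts. Stellate cell, endothelial and lymphocyte sums overlapped between the groups, and none of these genes was called by edgeR. At an unadjusted p under 0.05, 3 stellate and 3 endothelial genes were higher and 1 lymphocyte gene was lower, with 1 lymphocyte gene called lower by DESeq2 and 1 stellate gene called higher by limma-voom. In bulk tissue, fewer cells of a type and less RNA per cell cannot be told apart.

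Per length of transcript, liver tubulin mRNA was led by 3 genes. Counts were scaled to CPM with TMM factors, which use a trimmed mean of log ratios between libraries. They were then divided by the length of a gene's merged exons in kilobases (CPM per kb), so that genes of unlike length can be set side by side. This scale does not allow for windows shared with other genes, such as 52.7% in Tuba1c and 49.6% in Tubb2a against 0.0892% in Tubb5. The order of genes is given within that limit. In Control, Tuba4a stood at 35.8 ± 3.92 CPM per kb (SD, n = 6), Tubb4b at 35.1 ± 3.37 and Tubb2a at 26.2 ± 7.90. Tuba1c followed at 15.3 ± 4.14 CPM per kb and Tubb5 at 9.96 ± 2.07.

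The other 5 genes were low. Tubb6 had 2.60 ± 0.701, Tuba8 had 1.90 ± 0.534, Tuba1b had 1.61 ± 0.363, Tuba1a had 0.700 ± 0.236 and Tubb2b had 0.0753 ± 0.0826 CPM per kb in Control (SD, n = 6 each). The ranges of neighbours in this order overlapped, except between Tubb5 and Tubb6, between Tuba1b and Tuba1a, and between Tuba1a and Tubb2b. Tuba4a lay above Tubb4b in 3 of the 6 Control libraries, so their order was not resolved.

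In iTgMir483 livers the order at the top was another. Tubb2a had 34.0 ± 13.4 CPM per kb (SD, n = 6), Tubb4b had 26.3 ± 3.98 and Tuba4a had 22.5 ± 4.24, each overlapping its neighbour. Tubb4b lay above Tuba4a in 5 of the 6 libraries and Tubb2a above Tubb4b in 4. Tubb5 (11.6 ± 1.92) and Tuba1c (10.8 ± 1.55) changed places in the order of means, with Tubb5 above Tuba1c in 3 of the 6 libraries. The 5 low genes stayed low, from 0.0454 CPM per kb for Tubb2b to 2.71 for Tubb6.

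The comparison of iTgMir483 with Control asked how excess Mir483 after birth altered liver mRNA, and among the tubulins it gave a mixed answer. Tuba4a, the most abundant α gene, fell. Tubb4b and Tuba1c had an adjusted p under 0.05 but were not called, since their fold changes were under 1.5, and for Tuba1c the adjusted p missed 0.05 in 9 of the 12 fits without 1 library. None of the 9 genes tested was called higher, and Tuba1a, a scarce gene, lay near the threshold. A gene was called with edgeR's quasi-likelihood test at a Benjamini-Hochberg adjusted p under 0.05 over all genes and a fold change over 1.5. By this rule 1 of the 9 was lower, against 2.73% of all genes tested, and 0 of the 9 were higher, against 8.41%. With so few genes these shares cannot be ranked against the background. At an unadjusted p under 0.05, 1 of the 9 was higher and 3 were lower. The share of all genes at that unadjusted level is not given here. Counts at it, for these genes, the markers above and the lists below, therefore have no background to be read against. DESeq2 called 1 higher and 1 lower, and limma-voom 0 higher and 1 lower. Over all genes, DESeq2 called 1337 higher and 506 lower of 16426, and limma-voom 1031 and 381 of 13205. Counts by these tools for the markers above and the lists below are read against the same numbers. The median log2 fold change was 0.07 for the 9 genes and 0.0058 for all genes tested.

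**Figure D2:**
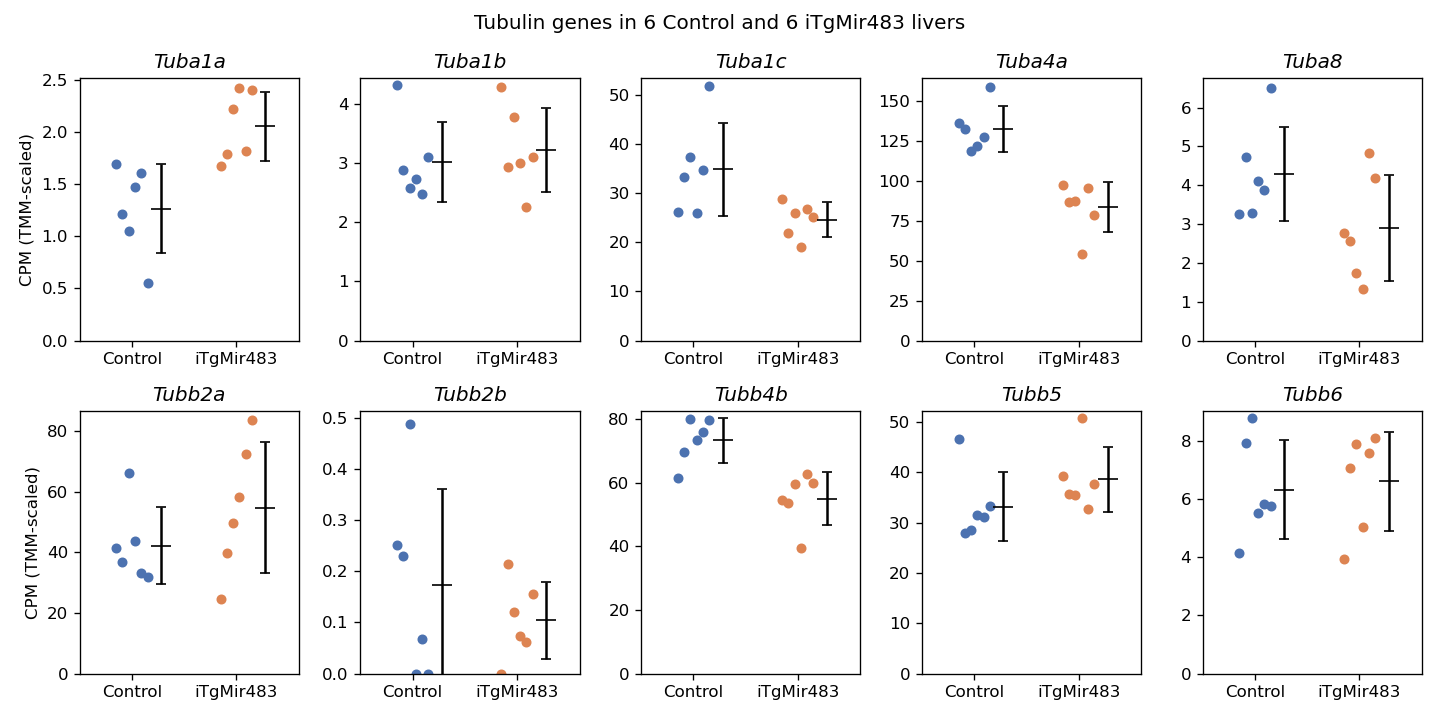
TMM-scaled CPM (y axes, each from 0) of the 10 tubulin genes in each library, for 6 Control (blue) and 6 iTgMir483 (orange) livers, with the mean and SD as bars, truncated at 0 for Tubb2b. Tuba4a is the panel in which the groups separate fully, with Control from 118.6 to 159.0 CPM and iTgMir483 from 54.5 to 97.3 CPM.

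Tuba4a (ENSMUSG00000026202, chr1:75214228-75219865, minus strand, GRCm38) encodes an α-tubulin isotype known from muscle, platelets and neurons. Its levels were 118.6, 129.8 and 159.0 CPM (lowest, median and highest) in Control and 54.5, 87.2 and 97.3 CPM in iTgMir483. All 6 iTgMir483 livers lay below every Control liver. Groups failed to overlap for 7.92% of the genes tested, and for 2.83% with iTgMir483 lower. The means were 132.6 ± 14.5 and 83.4 ± 15.7 CPM (SD, n = 6 each), and counts ran from 744 to 3565. The log2 fold change was -0.67 (SE 0.130, 95% interval -0.95 to -0.39, edgeR adjusted p 0.00377), a drop of 37.1% that was larger than the spread between mice. Of all genes tested, 3.23% had a log2 fold change at or under that of Tuba4a.

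The lowest iTgMir483 liver, replicate 4, bore on the call. Without it the value was -0.57 with an adjusted p of 0.00230, under the fold threshold of 1.5. The call held in the 11 other fits that left out 1 library, and the adjusted p stayed under 0.05 in all 19 alternatives, from 2.60e-05 to 0.00985. The opposite-strand neighbour Stk16, whose exons overlap those of Tuba4a, had 79.4 ± 8.30 CPM in Control and 79.3 ± 11.03 CPM in iTgMir483 (SD, n = 6 each). Its log2 fold change was -0.0016 (95% interval -0.23 to 0.23, edgeR adjusted p 0.994). Of the 8 hepatocyte markers, all tested, 6 had a log2 fold change below 0 and 2 above, Apoa1 (0.19) and Trf (0.19). Only 1 was called lower, against 2.73% of all genes tested: the urea cycle gene Cps1, with a log2 fold change of -1.21. Whether the hepatocyte share bears on Tuba4a was not tested.

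Tubb4b (ENSMUSG00000036752, chr2:25222160-25224702, minus strand) encodes a broadly made β isotype that is also a main β-tubulin of cilia. Its levels were 61.4, 74.7 and 80.1 CPM (lowest, median and highest) in Control and 39.6, 57.0 and 62.8 CPM in iTgMir483. Of the iTgMir483 livers, 5 of 6 lay below every Control liver, and the ranges overlapped through the highest iTgMir483 and the lowest Control liver. On the log2 scale the change was -0.42 (SE 0.110, 95% interval -0.65 to -0.18), with an edgeR adjusted p of 0.0179. This passed the adjusted p in all 19 alternatives (0.00353 to 0.0383) and the fold threshold in none of them.

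Tuba1c (ENSMUSG00000043091, chr15:99029891-99038110, plus strand) encodes a broadly expressed α isotype. Its levels were 26.0, 34.0 and 51.8 CPM in Control and 19.1, 25.6 and 28.8 CPM in iTgMir483 (lowest, median and highest). All 6 iTgMir483 livers lay below the Control median and 3 below every Control liver, with overlap. Its log2 change was -0.50 (SE 0.160, 95% interval -0.84 to -0.16), with an edgeR adjusted p of 0.0424, just under 0.05. It missed 0.05 in 9 of the 12 fits without 1 library, all but those without Control replicates 1 and 4 and iTgMir483 replicate 1, and the adjusted p of these 12 ran from 0.0217 to 0.0821. The log2 fold change lay nearest to 0 without Control replicate 6, at -0.36. With both replicate 1 libraries left out it was -0.62 (adjusted p 0.0177), past the fold threshold. By the adjusted p alone, 3 of the 9 genes were lower (Tuba4a, Tubb4b and Tuba1c), against 7.33% of all genes, and 0 were higher, against 11.3%.

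Tuba8 (ENSMUSG00000030137, chr6:121210696-121226854, plus strand) is the most divergent α gene, with coding identity to the other α genes from 79.1% to 81.1%. It had 3.26, 3.99 and 6.49 CPM in Control and 1.32, 2.67 and 4.82 CPM in iTgMir483 (lowest, median and highest). The groups overlapped, although 4 of the 6 iTgMir483 livers lay below every Control liver. The log2 fold change of -0.56 (SE 0.287, 95% interval -1.17 to 0.06) did not pass, with an edgeR adjusted p of 0.192.

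Tuba1a (ENSMUSG00000072235, chr15:98949837-98953703, minus strand) encodes the α isotype best known from developing neurons. It had 0.549, 1.34 and 1.69 CPM in Control and 1.67, 2.02 and 2.42 CPM in iTgMir483 (lowest, median and highest), from 6 to 43 counts per library. Of the iTgMir483 livers, 5 of 6 lay above every Control liver, and the ranges touched through iTgMir483 replicate 1 and Control replicate 1. The log2 fold change was 0.67 (SE 0.234, 95% interval 0.17 to 1.17), past the fold threshold, with an edgeR adjusted p of 0.0594, which misses the call. It passed with DESeq2 (0.65, adjusted p 0.0499), without Control replicate 1 (0.76, adjusted p 0.0440) and with both replicate 1 libraries left out (0.81, adjusted p 0.0402). In the other alternatives it did not pass, up to an adjusted p of 0.142.

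Neuron markers, which could come with a neuronal isotype, were near the floor of detection. The 5 marker genes summed to 1.65 to 2.51 CPM in Control and 2.47 to 4.03 CPM in iTgMir483, with overlap. Snap25 had 0 counts in all libraries and none of the 2 markers tested (Map2 and Rbfox3) passed. At an unadjusted p under 0.05, and with DESeq2 and limma-voom, the count was 0 as well. Their part in the level of Tuba1a was not tested.

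Tuba1b (ENSMUSG00000023004, chr15:98931425-98934565, minus strand) encodes the α isotype that is abundant in dividing cells. It had 2.48, 2.81 and 4.33 CPM in Control and 2.26, 3.05 and 4.29 CPM in iTgMir483 (lowest, median and highest). The ranges coincided almost fully. A log2 change of 0.10 resulted (95% interval -0.31 to 0.50, edgeR adjusted p 0.760).

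Tubb2a (ENSMUSG00000058672, chr13:34074274-34078007, minus strand) encodes a β isotype known from neurons and other tissues. It varied more than any other well-counted member, with 31.7, 39.2 and 66.4 CPM in Control and 24.5, 53.9 and 83.6 CPM in iTgMir483 (lowest, median and highest). The iTgMir483 livers spread to both sides of the Control range, with 1 below and 2 above every Control liver. On the log2 scale the change was 0.37 (SE 0.255, 95% interval -0.17 to 0.92, edgeR adjusted p 0.331), and the interval reached beyond the fold threshold on the upper side.

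Tubb2b (ENSMUSG00000045136, chr13:34126748-34130466, minus strand), the near copy of Tubb2a, had from 0 to 7 counts in Control and from 0 to 3 counts in iTgMir483. At this depth no difference was detectable, and the sharing of 31.3% of its windows with the much more abundant Tubb2a leaves the source of these counts uncertain.

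Tubb5 (ENSMUSG00000001525, chr17:35833921-35838306, minus strand) encodes the common β isotype of most cells. It had 27.8, 31.3 and 46.6 CPM in Control and 32.6, 36.7 and 50.9 CPM in iTgMir483 (lowest, median and highest). All 6 iTgMir483 livers lay above the Control median, with 1 above every Control liver. The log2 fold change was 0.22 (SE 0.136, 95% interval -0.07 to 0.51), with an edgeR adjusted p of 0.281. Without Control replicate 1, the highest of its group, it was 0.34 with an adjusted p of 0.0477, under the fold threshold.

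Tubb6 (ENSMUSG00000001473, chr18:67390717-67402749, plus strand) encodes a divergent β isotype. Its levels were 4.14, 5.79 and 8.78 CPM in Control and 3.93, 7.32 and 8.13 CPM in iTgMir483 (lowest, median and highest), with nearly the same range in both. Its log2 change was 0.07 (95% interval -0.38 to 0.51, edgeR adjusted p 0.858).

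**Figure D3:**
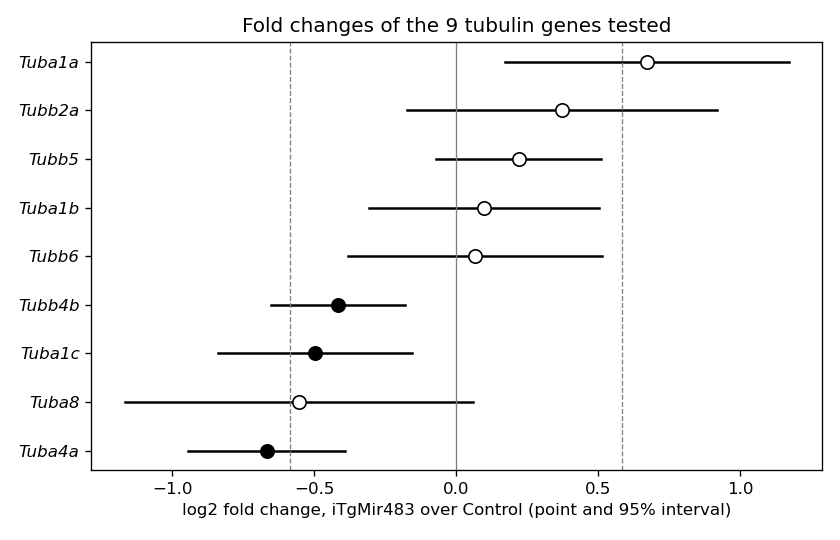
Log2 fold change of iTgMir483 over Control (x axis, point and 95% interval) for the 9 tubulin genes tested (y axis), with filled points where the adjusted p was under 0.05 and dashed lines at a fold change of 1.5. Tuba4a at -0.67 is the filled point beyond a dashed line, Tubb4b at -0.42 and Tuba1c at -0.50 are filled within them, and Tuba1a at 0.67 is open.

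Summed over genes, the α side was lower in iTgMir483 and the β side was not. Tuba4a made up most of the α sum (65.0% in Control), so this in large part repeats the result for Tuba4a. Tuba1a and Tuba1b had log2 fold changes above 0 (0.67 and 0.10). These sums, and the ratio and shares drawn from them, describe the members and carry no test. They do not allow for the unequal sharing of windows between genes. The 5 α genes together had 55.3 ± 7.72 CPM per kb in Control (48.4 to 70.4) and 37.5 ± 5.93 in iTgMir483 (26.6 to 43.3; SD, n = 6 each), and the groups did not overlap. The 5 β genes together had 74.0 ± 9.05 in Control and 74.7 ± 15.0 in iTgMir483, with overlap. The ratio of α to β sums was 0.758 ± 0.149 in Control and 0.522 ± 0.155 in iTgMir483, also with overlap, since iTgMir483 replicate 1 had 0.792.

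The make-up of each side is given as shares, whose ranges overlapped between the groups for every gene except Tuba1a. Tuba4a supplied 65.0% ± 3.37 of the α sum in Control and 59.9% ± 3.07 in iTgMir483 (SD, n = 6 each), and Tuba1c 27.3% ± 4.25 and 28.9% ± 1.75. Tuba1a supplied 1.32% ± 0.509 and 3.17% ± 1.06, with ranges of 0.432% to 1.77% and 2.14% to 5.04%, a share of an α sum that was itself lower in iTgMir483. On the β side, Tubb4b supplied 47.8% ± 5.46 in Control and 36.2% ± 7.73 in iTgMir483, Tubb2a 34.9% ± 5.96 and 44.0% ± 9.92, and Tubb5 13.7% ± 3.42 and 16.2% ± 4.46. Beside the lower Tubb4b, the means of Tubb2a and Tubb5 in the β sum were higher, and neither of those genes passed the test.

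**Figure D4:**
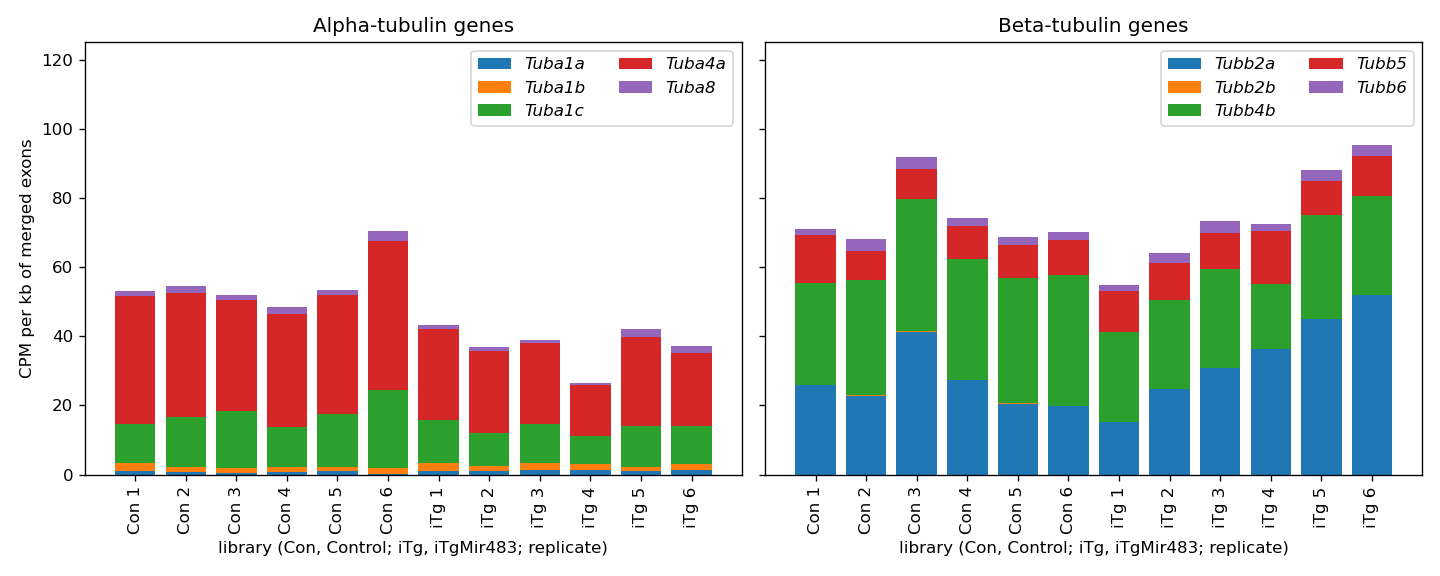
CPM per kb of merged exons (y axis) of the 5 α-tubulin genes (left) and the 5 β-tubulin genes (right), stacked in each library (x axis, Con for Control and iTg for iTgMir483). The α stacks run from 48.4 to 70.4 in Control and from 26.6 to 43.3 in iTgMir483, while the β stacks average 74.0 and 74.7.

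Within groups, the tubulin genes did not vary as a single block. Over the 12 libraries, deviations of log2 CPM from the group means had a median Pearson r of -0.0298 over 36 pairs of the 9 genes, with 17 pairs above 0. The 6 pairs among Tuba4a, Tuba8, Tuba1c and Tubb4b had r from 0.549 for Tuba1c and Tuba8 to 0.669 for Tuba1c and Tubb4b, with 0.658 for Tuba4a and Tuba8, 0.654 for Tuba4a and Tubb4b and 0.622 for Tuba1c and Tuba4a. These are the 4 genes whose log2 fold change lay below 0. Single libraries moved with this: iTgMir483 replicate 4, which stood apart over all genes, was the lowest of its group in all 4 (54.5, 1.32, 19.1 and 39.6 CPM), and Control replicate 6 was the highest of its group in Tuba4a, Tuba8 and Tuba1c (159.0, 6.49 and 51.8 CPM). The part of these libraries in the correlations was not tested. The most opposed pairs were Tuba1a and Tuba1c (-0.813), Tubb4b and Tubb5 (-0.799) and Tubb5 and Tubb6 (-0.737). The points are mice that share a library scaling and its depth, Tuba1a rests on few counts, and the values are descriptions without a test.

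The genes whose profile over the 12 libraries lay closest to that of Tuba4a were no tubulins. By root mean square difference of centred log2 CPM they were Pbld2 (0.108), Fahd1 (0.132), Notum (0.134), Hspb6 (0.152) and Sephs1 (0.156), a choice that takes in the group difference and so fixes their direction. This distance also grows with counting noise in scarce genes: Tuba8, with r of 0.658 to Tuba4a within groups, ranked 3101. Among the other 13204 genes, Tubb4b ranked 61 (0.215) and Tuba1c 162 (0.246), and the remaining tested members ranked 3101 or lower in likeness.

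The longest annotated 3′ UTRs of these genes were searched for one kind of match to the over-expressed microRNAs, the 7 bases pairing with the seed. The mature sequences, from RefSeq on GRCm38.p6, are shown with the seed (bases 2 to 8) in capitals.
miR-483-3p (chr7:142654932-142654952, minus strand): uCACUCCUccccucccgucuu
miR-483-5p (chr7:142654968-142654989, minus strand): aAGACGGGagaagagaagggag
The motifs AGGAGTG, pairing with bases 2 to 8 of miR-483-3p, and CCCGTCT, pairing with those of miR-483-5p, were searched on the transcript strand in the longest annotated 3′ UTR of each gene. Of the 10 tubulin genes, 0 held either motif. Among 12098 genes tested that had a 3′ UTR, 12.6% held the first and 3.26% the second. The tubulin 3′ UTRs are short, from 101 to 1394 bases with a median of 285, and the absence says only that these letters are not in these windows. Shorter or other kinds of match were not searched.

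RefSeq promoter windows, which span the start of transcription, were found for 8 of the 10 genes. CCAAT occurred on either strand in 4 of the 8 (Tuba1a, Tuba1c, Tubb4b and Tubb5), against 37.4% of all promoters, with 5 copies in Tubb4b. GGGCGG occurred in 6 of the 8, against 35.7%, and TATAAA in 2 (Tubb2a and Tubb4b), against 13.6%. Tuba4a had 2 copies of GGGCGG and neither of the others. No match overlapped another in these 8 windows, and the matches are letters in a window, not sites shown to be bound.

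Genes of the tubulin pathway were read from lists by role, each by its counts and median. Other tubulins were mostly silent: 7 of 10 had at most 12 counts in any library and were not tested. The 3 tested were Tubg1 of the γ-tubulin ring (log2 fold change -0.34, SE 0.129), Tubd1 (-0.31, SE 0.216) and Tube1 (-0.10, SE 0.344), with edgeR adjusted p of 0.0781, 0.336 and 0.863. None was called by edgeR, DESeq2 or limma-voom, and 1, Tubg1, had an unadjusted p under 0.05.

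The folding list holds the TRiC chaperonin, prefoldin, the tubulin cofactors and their regulators, which fold and assemble α and β chains. None of its 22 genes was called, by edgeR, DESeq2 or limma-voom. A log2 fold change below 0 was seen in 16, and the list's median was -0.18, beside 0.0058 for all genes tested. At an unadjusted p under 0.05, 11 were lower and 2 higher, counts without a background from all genes. By the adjusted p alone, 5 of the 22 were lower and 2 higher, against 7.33% and 11.3% of all genes tested, and these were singled out after their values were seen. The 5 were the TRiC subunits Cct3 (-0.51, adjusted p 0.0235), Cct6a (-0.49, 0.00765), Cct8 (-0.39, 0.00648) and Cct5 (-0.33, 0.0136) and the β-tubulin cofactor Tbca (-0.34, 0.0225), all from edgeR. Cct8 had 143.5 ± 11.8 CPM in Control and 109.5 ± 7.49 in iTgMir483, and Cct5 had 155.6 ± 11.9 and 123.5 ± 8.22 (SD, n = 6 each), without overlap between the groups. The 2 higher were Arl2, a small GTPase that works with the cofactors (0.44, adjusted p 0.0135), and Pfdn5, a prefoldin subunit (0.36, adjusted p 0.0361). Without 1 library, the adjusted p of Pfdn5 was under 0.05 in 5 of the 12 fits (0.0154 to 0.0803) and that of Cct3 in 11 (0.00630 to 0.0515). Cct3 passed the fold threshold as well in 1 fit, without Control replicate 1, at -0.60.

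Of the autoregulation genes, Ttc5 had 9.13 ± 1.28 CPM in Control and 12.3 ± 2.03 in iTgMir483 (SD, n = 6 each). Its log2 fold change was 0.43 (SE 0.129, edgeR adjusted p 0.0317), under the fold threshold, and the adjusted p ran from 0.0208 to 0.0738 without 1 library. Scaper had 0.42 (SE 0.155, adjusted p 0.0742) and Cnot11 -0.12 (SE 0.0884, adjusted p 0.370). None of the 3 was called, by edgeR, DESeq2 or limma-voom, and 2 had an unadjusted p under 0.05.

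Genes that modify tubulin gave 1 call, higher, among 18 tested of 24, against 8.41% of all genes, with a median log2 fold change of 0.11. Vash1, a carboxypeptidase that removes the terminal tyrosine of α-tubulin, rose from 0.721 ± 0.146 to 1.46 ± 0.671 CPM (SD, n = 6 each), on the log2 scale by 1.0003 (SE 0.283, edgeR adjusted p 0.0245). It was not called without Control replicate 2 or replicate 4, with adjusted p up to 0.0524. Of the 9 γ-tubulin ring genes and the 20 motor genes tested of 23, none was called by edgeR, DESeq2 or limma-voom, and the medians were -0.0111 and -0.0117. At an unadjusted p under 0.05, 2 ring genes were lower, and 1 motor gene was higher and 1 lower. By the adjusted p alone, 1 ring gene was lower, against 7.33% of all genes tested, and 0 motor genes passed. It was Nedd1 (-0.34, edgeR adjusted p 0.0128), without overlap between the groups. Its adjusted p stayed under 0.05 in all 12 fits without 1 library.

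Among 25 tested of 31 genes of microtubule dynamics, 3 were called higher and 0 lower, with a median of 0.03. A count of 3 of 25 lies near the 8.41% of all genes called higher, and the 3 are given as single genes. Clip2, which binds growing plus ends, rose from 3.39 ± 0.673 to 6.28 ± 1.55 CPM (log2 fold change 0.88, SE 0.190, adjusted p 0.00627) and was called in all 12 fits without 1 library. Map1s, a microtubule-associated protein, rose from 4.29 ± 1.04 to 6.84 ± 1.05 CPM (0.67, SE 0.173, adjusted p 0.0154), and without Control replicate 5 its log2 fold change of 0.57 fell under the fold threshold. Map1b, its neuronal relative, rose from 0.503 ± 0.180 to 1.19 ± 0.519 CPM (1.26, SE 0.353, adjusted p 0.0233), from as few as 3 counts. It was not called without Control replicate 4 or iTgMir483 replicate 3, with adjusted p up to 0.0613. With the replicate number as a block, 2 of the list were called higher, against 1106 of 13205 over all genes. At an unadjusted p under 0.05, 5 were higher and 5 lower, and DESeq2 and limma-voom each called 3 higher and 0 lower. By the adjusted p alone, 3 were higher and 1 lower, against 11.3% and 7.33% of all genes tested. The 1 lower was Spast (-0.31, edgeR adjusted p 0.0358), under 0.05 in 3 of the 12 fits without 1 library.

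The wider cytoskeleton list (actin, keratin, tropomyosin and related genes) had 2 of 18 called higher, near the 8.41% of all genes, and a median of 0.14. They were Tmsb10 (log2 fold change 0.80, SE 0.234, adjusted p 0.0285) and Tmsb4x (0.64, SE 0.168, adjusted p 0.0173), the β-thymosins that hold actin monomers. Tmsb10 lost the call in 5 of the 12 fits without 1 library (Control replicates 2 and 4 and iTgMir483 replicates 2, 3 and 4; adjusted p up to 0.0708). Tmsb4x lost it without Control replicate 6 or iTgMir483 replicate 4, down to a log2 fold change of 0.45. Both are abundant in leukocytes, and the macrophage marker sums given above moved with them. The part of those cells was not tested. By the adjusted p alone, 4 of the 18 were higher and 0 lower, against 11.3% and 7.33% of all genes tested. They include Arpc1b (0.51, edgeR adjusted p 0.0158) and Tpm4 (0.37, edgeR adjusted p 0.0286), both under the fold threshold.

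Proliferation genes, which bear on the spindle use of tubulin, had 1 of 7 tested called higher, against 8.41% of all genes, and a median of 0.60. Of the 7, 5 had a log2 fold change above 0 and 2 below, Birc5 (-0.48) and Kif11 (-0.18), neither called. DESeq2 called 2 of the list higher and limma-voom 1, with 0 lower by either. At an unadjusted p under 0.05, 2 were higher and 0 lower. Mki67 rose from 1.87 ± 0.688 to 4.69 ± 1.17 CPM (log2 fold change 1.31, SE 0.240, edgeR adjusted p 0.00272), without overlap and in all 12 fits without 1 library. The 15 genes of the list summed to 6.83 to 15.2 CPM in Control and 11.3 to 20.7 CPM in iTgMir483, with overlap. Tuba1b and Tubb5, the isotypes named above for dividing and most cells, had log2 fold changes of 0.10 and 0.22 beside this and did not pass.

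**Figure D5:**
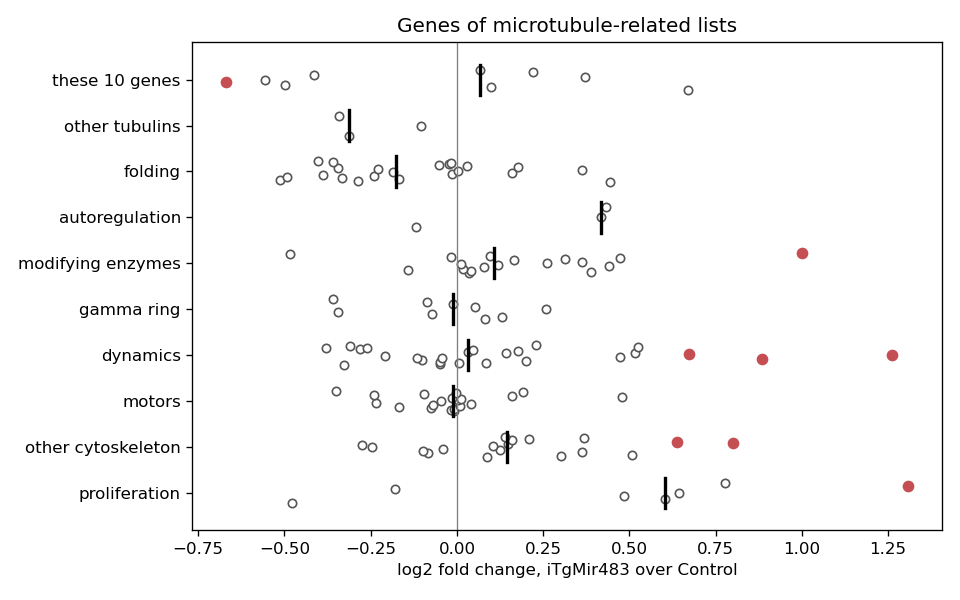
Log2 fold change of iTgMir483 over Control (x axis) for the tested genes of each list (y axis), with called genes in red and a black bar at each list's median. The tubulin row has 1 red point on the negative side (Tuba4a at -0.67), and red points in the other rows lie on the positive side, up to Mki67 at 1.31.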

How the data were processed

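Livers of 6 iTgMir483 and 6 Control mice were compared, with groups and replicate numbers taken from the sample titles. The authors deposited raw counts of reads for each gene. They sequenced stranded poly(A) libraries as short paired reads, mapped these to GRCm38 using STAR and counted by gene. How reads mapping to several genes were handled is not given in the sources used here. The table held 55401 genes, of which 55141 had a symbol in GENCODE M21 (Ensembl 96), used here for names, exons and positions. Every row named a gene and every column a sample.

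Genes passing edgeR's filterByExpr were scaled by TMM and compared by the quasi-likelihood F-test without covariates (edgeR 4.0.16, limma 3.58.1, R 4.3.3), on all genes. A call needed an adjusted p (Benjamini-Hochberg) below 0.05 together with a fold of more than 1.5. Standard errors were obtained as the absolute log2 value over the root of the F statistic. The steps were tested on simulated data. Pairs of libraries differed beyond sampling noise (smallest chi-square per gene 15.7), so each counted as 1 replicate.

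The members and lists were chosen with earlier results of these data known. Named genes were all members, up to 4 called genes per list, lists of 3 or fewer genes, Mir483, and the 5 genes closest in profile to Tuba4a. Some list genes under the adjusted p alone, and some markers, were also named after their values were seen. Alternatives were RLE size factors, other filters (none, or at least 10 counts in every library), DESeq2 1.42.0, limma-voom, the replicate block, each library left out, both replicate 1 libraries left out, the adjusted p alone, and another gene length. Sept2 had more than one identifier, and the one with more counts was used. Protein sequences were not analysed here.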

Additional observations from a re-analysis of the deposited data

Results flagged for a closer look

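For 4 of 20 groups of 6 values (10 genes in each group of mice), 1 library lay far from the other 5, with a gap to its nearest neighbour that took more of the group's range than Dixon's 95% limit allows. Chance gives about 1 in 20 groups, or 1 here. Tubb5 had 46.6 CPM in Control replicate 1 against 27.8 to 33.4 in the other Control livers (gap 0.704 of the range), and 50.9 CPM in iTgMir483 replicate 4 against 32.6 to 39.2 in the other iTgMir483 livers (0.642). Tuba1b had 4.33 CPM in Control replicate 1 against 2.48 to 3.11 (0.659). Tubb2a had 66.4 CPM in Control replicate 3 against 31.7 to 43.9 (0.649). Control replicate 1 and iTgMir483 replicate 4 are also among the libraries that stood apart over all genes.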

How the results depend on the processing

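The count of tubulin genes called higher was 0, and became 1 (Tuba1a) with DESeq2 and with both replicate 1 libraries left out, and ranged from 0 to 1 over the fits without 1 library. The count called lower was 1, and became 2 with both replicate 1 libraries left out and 3 by the adjusted p alone. It ranged from 0 (without iTgMir483 replicate 4) to 1 without 1 library. Some values near 0 changed sign: without 1 library, the log2 fold change of Tuba1b ran from -0.0011 (without iTgMir483 replicate 1) to 0.23 and that of Tubb6 from -0.0322 (without Control replicate 1) to 0.18, and neither gene was called in any of these fits. With the length of the longest protein-coding transcript, the α sum was 68.6 CPM per kb in Control and 46.1 in iTgMir483, and the Tuba4a share in iTgMir483 was 63.5%. The β sum was 88.4 in Control and 86.8 in iTgMir483. Its difference between groups changed sign, from 0.650 with merged exons to -1.59, with overlapping ranges both ways. The causes were not tested, apart from the shorter lengths, which raise CPM per kb. The labels do not say that equal replicate numbers mark paired mice. Correlations of deviations between same-numbered libraries were 0.440 for replicate 1, and 0.0419, 0.0376, 0.0339, 0.167 and 0.0527 for replicates 2 to 6. Both replicate 1 libraries were also among those that stood apart over all genes. Whether they share a factor was not tested. With the replicate block, 0 tubulin genes were higher and 1 lower, against 1106 and 424 of 13205 over all genes. Tuba4a was -0.69 in that fit (adjusted p 0.00471). Depth limits Tubb2b, with at most 7 counts, and Tuba1a, with at most 43.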
